A study of Arabidopsis thaliana with 18 samples.

Results

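The comparison described here sets cultured Arabidopsis thaliana cells of the SND1 line against wild-type (wt) cells, both sampled 12 h after estrogen was added. It was formed from the array titles and uses 6 of the 18 Affymetrix ATH1 arrays of the study, 3 of SND1 cells and 3 of wt cells. The wt cells carry no transgene that the labels name, and the SND1 cells were transformed so that estrogen switches on SND1. Both groups received 2 µM estrogen for 12 h, so a difference between them is not one between treated and untreated cells, and neither line was sampled at 12 h without estrogen. None of the sources used here gives the promoter behind the estrogen switch, the ecotype, the age of the cultures or whether the line is 1 clone. The other 12 arrays hold the same 2 kinds of cells before estrogen (0 h) and cells with estrogen-inducible VND6 at both times. The question is which transcripts differ early once SND1 is induced.

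SND1 is a transcription factor of the NAC family that switches on secondary wall formation in the fibre cells of the stem. A secondary wall is laid down inside the primary wall once a cell has stopped growing, and consists of cellulose, xylan and lignin. The enzymes that build xylan and the proteins that carry wall material work in the Golgi and its vesicles, cellulose is made at the plasma membrane along tracks set by cortical microtubules, and lignin is made by oxidation of monolignols in the wall. VND6 is a related NAC factor of the water-conducting vessels, whose cells die once the wall is built.

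Each array gives 1 linear signal per probe set, scaled by the authors, and arrays are named below in the order replicate 1, replicate 2, replicate 3. The median signal of the 6 arrays was 127 to 133, and 15715 of 22810 probe sets were bright enough on 3 or more of the 18 arrays to be tested, among them 8737 genes with a name. Precision is limited by the 3 arrays a group. Replicate 1 stood apart from the others in both groups. Spearman's rho at 12 h was 0.990 between wt replicates 2 and 3 and 0.991 between SND1 replicates 2 and 3, but 0.931 and 0.932 from wt replicate 1 to the other two, and 0.953 and 0.958 from SND1 replicate 1. The labels name 2 labelling kits without tying either to a sample, so whether kit and replicate go together was not tested. The labels do not state that a replicate is a culture of its own, so the p-values rest on a spread between samples that may be technical alone. The arrays sampled whole cultures, in which fewer cells of a type and less RNA per cell cannot be told apart. The SND1 transcript itself was not analysed here, so its induction was not measured. No marker of phloem, suberised or senescing cells on the lists used was named on the array, and of the procambium markers LHW alone was tested (-0.38, SE 0.20, adjusted p = 0.24). Over the 28 tested photosynthesis genes the summed signal was 61300, 32100 and 29800 in wt cells and 61600, 26400 and 23100 in SND1 cells, so replicate 1 was the highest in both groups.

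Rises outnumbered falls in SND1 cells at 12 h. A gene said to rise or fall was higher or lower in SND1 than in wt cells at 12 h. This is not a change over time within either line. Of the 15715 probe sets, 2006 (12.8%) differed at an adjusted p under 0.05 in limma's moderated test, 1400 of them higher in SND1 cells (8.91%) and 606 lower (3.86%). Differences are on the scale of log2(signal + 4.32), which understates those of dim probe sets. At least 2-fold differences were found for 1103 of the higher and 290 of the lower probe sets. The median over all tested probe sets was -0.12, so the bulk lay slightly lower in SND1 cells, and -0.12 also after quantile normalization. Leaving out wt replicate 2, wt replicate 3, SND1 replicate 2 or SND1 replicate 3 lowered the count to 1134, 1078, 1108 and 1124, while it was 2385 without wt replicate 1 and 1488 without SND1 replicate 1. Where a named gene lost its call in one of these 6 fits, the arrays concerned are named below, with the range of its log2 difference and of its adjusted p over all 6. With replicates 2 and 3 averaged and counted as 1 array, 283 probe sets passed, 271 higher and 12 lower. With replicates 2 and 3 alone, a fit with as many values per group as that one, 7328 passed, 3257 higher and 4071 lower. With array weights, which favour arrays that agree, 8285 passed, 3543 higher and 4742 lower. Falls outnumbered rises in these last 2 fits. A principal component analysis of the 9 arrays at 12 h put 52.3% of the variance on its first axis. There the SND1 arrays lay together, at 21.1, 20.0 and 19.5, between the wt arrays at -58.8, -88.3 and -91.2 and the VND6 arrays at 25.1, 77.0 and 75.6.

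**Figure D1:**
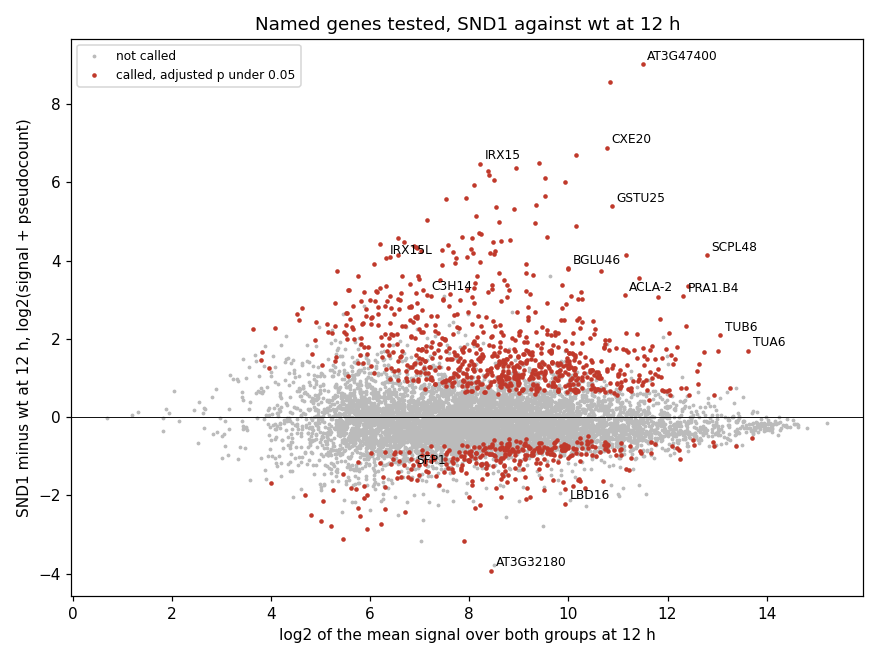
Each point is a named gene tested, with the log2 of its mean signal over the 6 arrays at 12 h on the x axis and the difference SND1 minus wt in log2(signal + 4.32) on the y axis. Red points are the 1090 named genes with an adjusted p under 0.05, of which 767 lie above 0 and 323 below.

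Genes of xylan synthesis were the wall group with the highest median. Of the 4 tested genes on the xylan list 3 rose (75%, beside 8.91% of all probe sets) and none fell. IRX15 and IRX15L were too dim in wt cells for testing. They were tested only because other arrays, the SND1 arrays at 12 h among them, were bright. The list was also chosen with earlier results of these data known, so the count is a description. The median log2 difference of the 4 was 2.89 against -0.12 over all probe sets. IRX15 (AT3G50220), a Golgi protein needed for normal xylan chains, gave signals of 2.50, 3.29 and 1.43 in wt cells and 499.6, 578 and 707 in SND1 cells. Every wt array was at the floor of the scale and every SND1 array was bright. The difference was 6.47 (SE 0.42, adjusted p = 7.79e-08). IRX15L (AT5G67210), its close paralog, gave signals of 5.99, 5.71 and 2.45 in wt cells and 82.4, 185 and 195 in SND1 cells. The arrays did not overlap, and the difference was 4.06 (SE 0.64, adjusted p = 0.000457). IRX10 (AT1G27440), a xylosyltransferase that extends the xylan backbone, gave 152, 113 and 92.1 in wt cells and 376, 382 and 414 in SND1 cells. Its SND1 arrays lay close together above all wt arrays, with a difference of 1.71 (SE 0.21, adjusted p = 5.39e-05). The paralog IRX10L (AT5G61840), which is in part redundant with it, gave 719, 887 and 799 in wt cells and 922, 1070.1 and 1038 in SND1 cells. Its SND1 arrays were all above the wt arrays, and the arrays of the groups did not overlap, in either direction, for 42.7% of all probe sets. The difference of 0.33 (SE 0.30, adjusted p = 0.497) did not pass. At 0 h none of the 4 passed, and in the difference between the 12 h and the 0 h comparison IRX15, IRX15L and IRX10 passed at 6.57, 4.52 and 1.36.

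TBL proteins are transferases that put acetyl groups on wall polysaccharides, and TBL34 is known to act on xylan. TBL34 (AT2G38320) gave 263, 36.7 and 32.5 in wt cells and 1856, 2397 and 2284 in SND1 cells. Replicate 1 was the brightest of the wt arrays by far, yet every SND1 array was several times above it, and the difference was 4.88 (SE 0.71, adjusted p = 0.000259). TBL18 (AT4G25360) rose by 1.11 (SE 0.22, adjusted p = 0.00312) and TBL26 (AT4G01080) fell by 1.16 (SE 0.30, adjusted p = 0.0195). Of the 13 tested TBL genes, these were the 2 that rose (15.4%) and the 1 that fell (7.69%), and the median was -0.0055. Over all probe sets the shares were 8.91% and 3.86%. TBL26 did not pass without wt replicate 2 or 3 or SND1 replicate 1, 2 or 3 (-1.22 to -1.1, adjusted p 0.0297 to 0.0793). This family and the others below that are named by symbol were chosen after their values were seen, so their counts are descriptions.

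**Figure D2:**
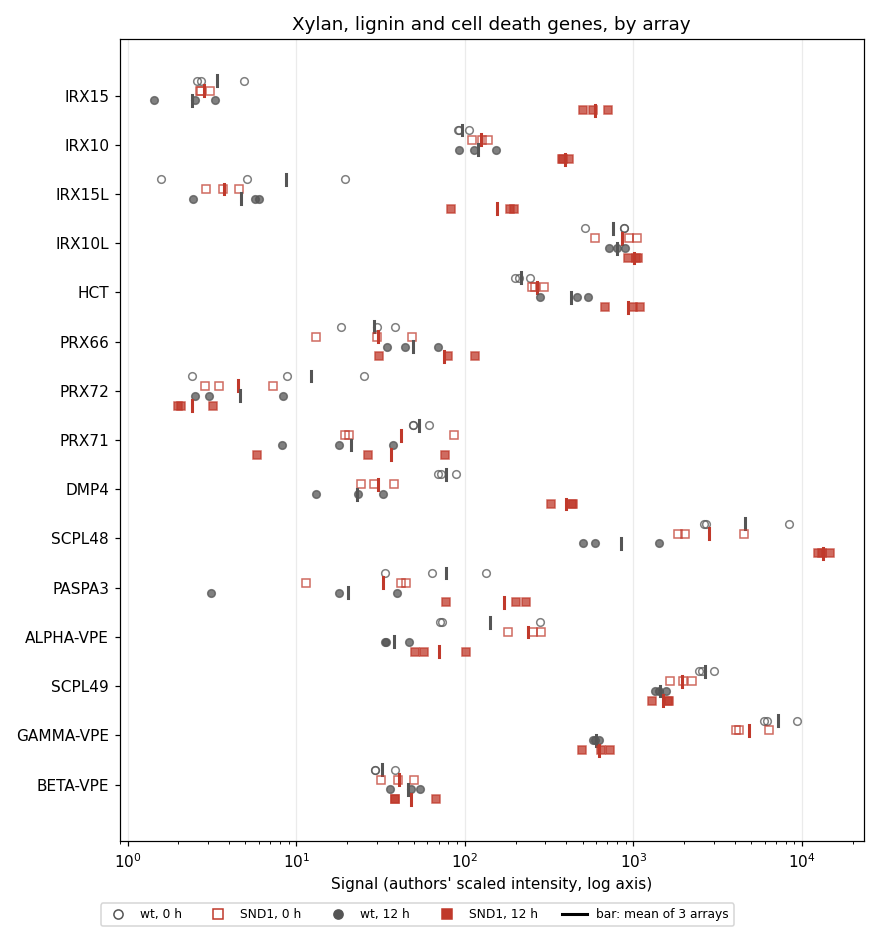
Signals of the tested xylan, lignin and cell death genes on each array (points, log axis), with the mean of 3 arrays as a bar, for wt (grey circles) and SND1 cells (red squares) at 0 h (open) and 12 h (filled). IRX15, IRX15L, DMP4, SCPL48 and PASPA3 have filled red squares above every filled grey circle, while PRX72 reaches 8.36 at most at 12 h.

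Of the 4 lignin genes tested 1 rose (25%, beside 8.91% of all probe sets) and none fell, with a median of 0.41. HCT (AT5G48930), an acyltransferase of the monolignol pathway, gave 278, 459.8 and 535 in wt cells and 682, 1091 and 998 in SND1 cells. The lowest SND1 array was above the highest wt array, and HCT rose by 1.14 (SE 0.29, adjusted p = 0.0172). It did not pass without wt replicate 1 or SND1 replicate 2 or 3 (0.86 to 1.34, adjusted p 0.0139 to 0.0857). PRX66, PRX72 and PRX71 are secreted peroxidases of the class that couples monolignols. PRX66 (AT5G51890) gave 69.1, 44.0 and 34.7 in wt cells and 30.8, 115 and 79.2 in SND1 cells, overlapping groups with a difference of 0.45 (SE 0.46, adjusted p = 0.564). PRX72 (AT5G66390) gave 8.36, 3.03 and 2.52 in wt cells and 2.07, 2.00 and 3.20 in SND1 cells, at the floor of the scale in both (-0.36, SE 0.58, adjusted p = 0.726). PRX71 (AT5G64120) gave 8.26, 37.6 and 17.9 in wt cells and 76.2, 26.8 and 5.87 in SND1 cells and spread widely within SND1 cells (0.37, SE 0.75, adjusted p = 0.782). Genes whose products handle monolignol glucosides were found among the symbol families. BGLU46 (AT1G61820), a beta-glucosidase known to release monolignols from their glucosides, gave 75.5, 152 and 184 in wt cells and 1217, 2283 and 2230.2 in SND1 cells. Its lowest SND1 array was far above its highest wt array, and it rose by 3.79 (SE 0.41, adjusted p = 1.46e-05). UGT72E1 (AT3G50740), a glucosyltransferase known to act on monolignol aldehydes, gave 988, 2284 and 1752 in wt cells and 928, 612 and 676 in SND1 cells. Its replicate 1 arrays were close to each other and the others far apart, and it fell by 1.12 (SE 0.28, adjusted p = 0.0158). UGT72E1 did not pass without wt replicate 2 or 3 or SND1 replicate 2 or 3 (-1.46 to -0.85, adjusted p 0.00161 to 0.0987). By symbol UGT72E2 and GT72B1 are close to it, and neither passed. They were at -0.16 (SE 0.31, adjusted p = 0.776) and -0.28 (SE 0.52, adjusted p = 0.761).

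Part of the genes linked to cell death and autolysis rose. Of 7 tested, 3 rose (42.9%, beside 8.91% of all probe sets) and none fell, with a median of 0.76. The members that rose were not the vacuolar processing enzymes. Of the 3, DMP4 and PASPA3 carry a locus code alone in the annotation and were labelled by hand. The list was chosen with earlier results of these data known, so the count is a description. SCPL48 (AT3G45010), a serine carboxypeptidase-like protein counted among the markers of cell death in development, gave 1426, 591 and 502 in wt cells and 12382, 13120.2 and 14591 in SND1 cells. Its SND1 signals were among the brightest of the genes named here, and it rose by 4.14 (SE 0.46, adjusted p = 1.6e-05). DMP4 (AT4G18425), a membrane protein used as such a marker too, gave 23.3, 32.6 and 13.2 in wt cells and 324, 438 and 431 in SND1 cells. All SND1 arrays were far above every wt array, and DMP4 rose by 3.93 (SE 0.32, adjusted p = 7.09e-07). PASPA3 (AT4G04460), an aspartic protease and another such marker, gave 3.14, 39.5 and 18.02 in wt cells and 77.1, 232 and 201 in SND1 cells. Its replicate 1 was the lowest in both groups, and it rose by 3.03 (SE 0.63, adjusted p = 0.0047). The remaining members did not pass. ALPHA-VPE gave 46.5, 34.1 and 33.8 in wt cells and 50.7, 57.6 and 102 in SND1 cells (0.76, SE 0.41, adjusted p = 0.238), every SND1 array above every wt array. GAMMA-VPE gave 626, 576 and 593 in wt cells and 497, 646 and 723 in SND1 cells (0.040, SE 0.28, adjusted p = 0.946) and BETA-VPE 35.8, 48.2 and 54.4 in wt cells and 67.3, 38.3 and 38.6 in SND1 cells (0.027, SE 0.35, adjusted p = 0.97). Both overlapped between the groups, as did SCPL49, a paralog of SCPL48, at 1347, 1565 and 1414 in wt cells and 1618, 1595 and 1295 in SND1 cells (0.054, SE 0.16, adjusted p = 0.856). The 3 VPE genes encode vacuolar proteases that activate other vacuolar enzymes. At 0 h none of the 7 passed, and SCPL48, DMP4 and PASPA3 passed in the 12 h difference minus the 0 h difference (4.75, 5.17 and 4.13).

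Most of the tubulin genes tested rose. Tubulins are the alpha and beta subunits of microtubules. On the list of microtubule and wall patterning genes 6 of 9 rose (66.7%) and none fell, with a median of 1.70. Over all probe sets 8.91% were called higher. TUB6 (AT5G12250) gave 4377, 2613 and 2908 in wt cells and 12270.0, 14416 and 14585 in SND1 cells. The 2 groups were separated by more than the range of either, and TUB6 rose by 2.09 (SE 0.18, adjusted p = 1.47e-06). TUA6 (AT4G14960) gave 8753, 4544 and 5165 in wt cells and 20872, 18788 and 17943 in SND1 cells and rose by 1.70 (SE 0.20, adjusted p = 3.4e-05). In TUA6 and in TUB6, wt replicate 1 was the brightest wt array. TUB9, TUB7 and TUB1 rose by 1.5 (SE 0.23, adjusted p = 0.000365), 1.76 (SE 0.28, adjusted p = 0.000593) and 1.70 (SE 0.28, adjusted p = 0.000618). KIN13A (AT3G16630), a kinesin that takes microtubules apart and is known for shaping wall pits, gave 903, 770.4 and 658 in wt cells and 1977, 2162 and 2023 in SND1 cells. Every SND1 array was well above every wt array, and KIN13A rose by 1.41 (SE 0.23, adjusted p = 0.000614). Members that did not pass were TUB5 at 1.77 (SE 0.69, adjusted p = 0.105), TUA1 at -0.51 (SE 0.19, adjusted p = 0.0951) and IQD24 at -1.38 (SE 0.64, adjusted p = 0.166). All SND1 arrays were below all wt arrays for TUA1 and for IQD24. Tubulin genes are similar in sequence, and cross-hybridisation between them was not tested. At 0 h TUB6 and TUB1 were already higher in SND1 cells, by 0.72 (SE 0.18, adjusted p = 0.0488) and 1.1 (SE 0.28, adjusted p = 0.0488). TUB6, TUA6 and KIN13A passed in the 12 h difference minus the 0 h difference, at 1.37, 1.69 and 1.47.

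Other genes of the cytoskeleton were higher as well. IQD proteins bind calmodulin and many sit on microtubules. IQD30 (AT1G18840) gave 35.5, 39.0 and 28.4 in wt cells and 629.6, 759 and 668 in SND1 cells. The SND1 arrays were all far above the brightest wt array, and IQD30 rose by 4.16 (SE 0.30, adjusted p = 1.95e-07). IQD31 (AT1G74690) gave 555, 333 and 341 in wt cells and 1702, 1882 and 1768 in SND1 cells and rose by 2.15 (SE 0.24, adjusted p = 1.57e-05). These were 25% of the 8 tested IQD genes, beside 8.91% of all probe sets called higher. The other 6 did not pass, and the median of the 8 was 0.093. Both IQD30 and IQD31 were also higher at 0 h, by 1.59 (SE 0.30, adjusted p = 0.0117) and 1.17 (SE 0.24, adjusted p = 0.0173). BRK1 and PIR121 are subunits of the SCAR complex, which starts branched actin filaments, and SPK1 is an exchange factor that activates ROP GTPases upstream of it. SPK1 (AT4G16340) gave 135, 104 and 93.6 in wt cells and 399.5, 451 and 450.3 in SND1 cells and rose by 1.94 (SE 0.26, adjusted p = 0.000129). PIR121 (AT5G18410) gave 240.1, 155 and 229 in wt cells and 653, 698 and 667 in SND1 cells and rose by 1.70 (SE 0.25, adjusted p = 0.000262). BRK1 (AT2G22640) rose by 1.41 (SE 0.33, adjusted p = 0.00956) but did not pass without SND1 replicate 2 (1.22 to 1.69, adjusted p 0.00482 to 0.0583). These were 3 of 4 tested genes of that group (75%, beside 8.91% of all probe sets called higher). The group was chosen after its values were seen, so the count is a description.

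Few regulators of the wall programme could be tested. C3H14 was labelled by hand from a locus code, on a list chosen with earlier results of these data known. C3H14 (AT1G66810), a zinc finger protein known as an activator of secondary wall genes, gave 70.1, 8.69 and 19.5 in wt cells and 189, 278 and 281 in SND1 cells. Replicate 1 was the highest of the wt arrays and the lowest of the SND1 arrays, and C3H14 rose by 3.13 (SE 0.70, adjusted p = 0.00755). The other tested gene on that list, NAC014 (AT1G33060), entered it by its NAC number alone and has no role in walls assigned here. NAC014 gave 382, 364 and 382 in wt cells and 173, 170.5 and 199.9 in SND1 cells and fell by 1.04 (SE 0.23, adjusted p = 0.00705). No MYB gene of the list and no cellulose synthase of secondary walls had a name in the array annotation. Of 12 tested auxin response genes 2 rose (16.7%) and 1 fell (8.33%), with a median of -0.052. Over all probe sets the shares were 8.91% and 3.86%. IAA20 (AT2G46990) and IAA33 (AT5G57420) belong to the Aux/IAA repressors of auxin signalling, in a subgroup that lacks the usual degradation motif. IAA20 gave 7.08, 34.0 and 7.14 in wt cells and 214, 574 and 559 in SND1 cells and rose by 4.60 (SE 0.60, adjusted p = 8.41e-05). IAA33 gave 23.5, 9.49 and 9.73 in wt cells and 90.1, 188 and 187 in SND1 cells and rose by 3.11 (SE 0.61, adjusted p = 0.00298). In both, each SND1 array was above each wt array. LBD16 (AT2G42430), a factor that auxin induces in lateral root founder cells, gave 1316, 1832 and 1697 in wt cells and 335, 336 and 356 in SND1 cells. The SND1 arrays lay within a narrow band far under the wt arrays, and LBD16 fell by 2.21 (SE 0.43, adjusted p = 0.00289). IAA30 gave 149.6, 39.0 and 31.6 in wt cells and 154, 267 and 236 in SND1 cells and did not pass (1.81, SE 0.69, adjusted p = 0.0978). With the replicate block IAA30 passed (adjusted p = 0.0365), which makes 3 of the 12 higher. With replicates 2 and 3 averaged 1 of the 12 was higher and none lower.

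The 15 largest rises, among named genes whose 6 arrays did not overlap, went from the floor to bright signals. Their wt signals ran from 1.16 to 48.5 and their SND1 signals from 334 to 6052, with differences of 5.59 to 9.02. Against wt signals this low the size of a difference depends on the pseudocount: with none the 15 ran from 5.95 to 9.86, and with one 4 times larger from 4.42 to 7.88. IRX15 was at 8.02 and 4.95, and AT5G16230 at 7.88 and 4.88, so neither the sizes nor the order are exact. All 15 passed with either pseudocount, though probe sets at the floor in wt cells were tested only because other arrays were bright. AT3G47400 led with 15.5, 4.73 and 3.31 in wt cells and 5428, 6052 and 5869 in SND1 cells. Its mean went from 7.85 ± 6.67 to 5783 ± 321 (SD, n = 3), a difference of 9.02 (SE 0.46, adjusted p = 6.07e-09). AT5G60530 followed with 9.996, 3.13 and 2.62 in wt cells and 1934, 4351 and 4699 in SND1 cells (8.56, SE 0.90, adjusted p = 1.05e-05). CXE20 (AT5G62180) encodes a carboxylesterase, an enzyme that splits ester bonds. CXE20 gave 10.9, 41.6 and 31.5 in wt cells and 3029.7, 3745 and 3617 in SND1 cells and rose by 6.88 (SE 0.49, adjusted p = 1.77e-07). AT1G52060 and AT1G52050 lie next to each other in the gene order of the RefSeq annotation. AT1G52060 gave 24.3, 19.3 and 7.55 in wt cells and 1154, 2469 and 3147 in SND1 cells and rose by 6.70 (SE 0.57, adjusted p = 1.2e-06). AT1G52050 gave 34.5, 3.49 and 23.7 in wt cells and 974, 1869 and 1539.6 in SND1 cells and rose by 6.12 (SE 0.70, adjusted p = 2.36e-05). Replicate 1 was the lowest SND1 array for both neighbours. AT5G16230 gave 1.35, 11.1 and 1.16 in wt cells and 334, 798 and 849 in SND1 cells and rose by 6.30 (SE 0.62, adjusted p = 5.27e-06).

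IRX15, described with the xylan genes, is among the 15. The remaining 8 have locus codes as their only names, and no role is assigned to them here. AT5G03510 rose by 6.51, AT4G01240 by 6.36, AT1G54790 by 6.20 and AT5G14510 by 6.06. AT4G27435 rose by 6.01, AT5G57500 by 5.94, AT1G75280 by 5.65 and AT2G04850 by 5.59. All 15 passed in each of the 6 fits that left out 1 array, at adjusted p-values of at most 0.000405. None of the 15 passed at 0 h, and all 15 passed in the 12 h difference minus the 0 h difference. The 15 were chosen by their 12 h difference, which that contrast and the 6 fits contain. Passing in them was thus nearly fixed by the choice and is no further support.

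**Figure D3:**
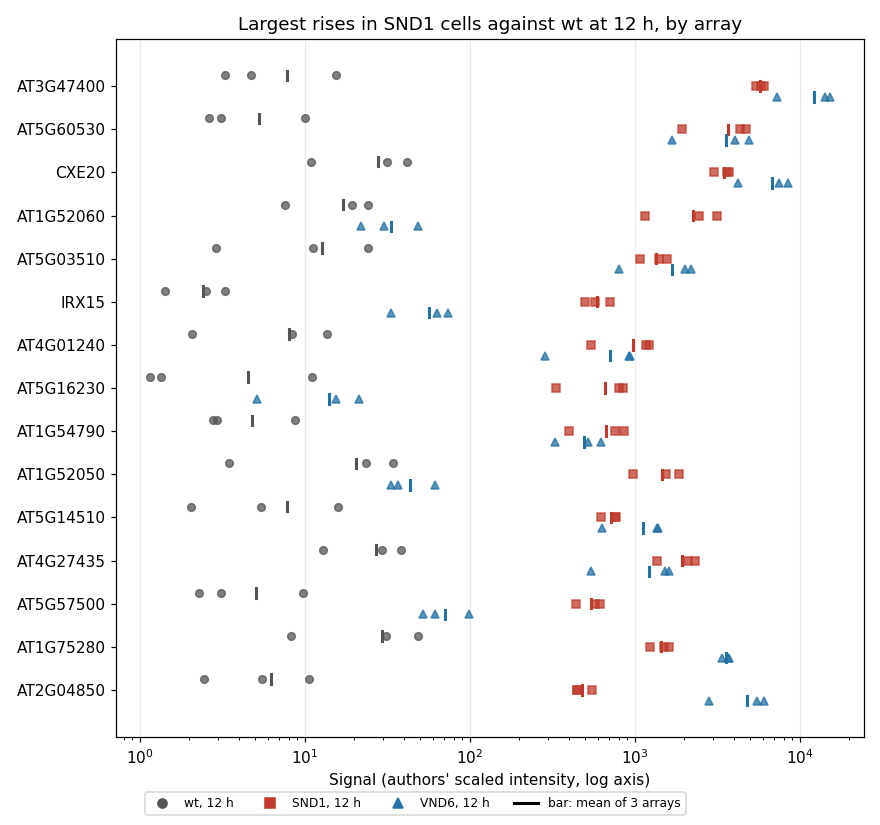
Signals at 12 h of the 15 named genes with the largest rises, on each wt (grey circles), SND1 (red squares) and VND6 array (blue triangles), with group means as bars on a log axis. Every wt point lies at or under 48.5 and every SND1 point at or above 334, while the VND6 points of AT1G52060, AT1G52050, IRX15, AT5G16230 and AT5G57500 lie at or under 99.4.

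Some genes of the secretory route, by which wall polymers and enzymes leave the cell, were higher in SND1 cells. Of 12 tested genes with a SEC symbol or synonym 6 rose and none fell, beside 8.91% of all probe sets called higher, with a median of 0.68. SEC22 (AT1G11890), a membrane fusion protein of the endoplasmic reticulum and Golgi, gave 1199.7, 1049 and 962 in wt cells and 2134, 2415 and 2785 in SND1 cells. It rose by 1.19 (SE 0.27, adjusted p = 0.00817) and passed without any 1 array, but not with replicates 2 and 3 averaged (adjusted p = 0.277). SEC5A, SEC6 and SEC10 are subunits of the exocyst, which ties vesicles to the plasma membrane. SEC5A rose by 0.70 (SE 0.17, adjusted p = 0.0106), but did not pass without SND1 replicate 2 (0.67 to 0.77, adjusted p 0.0122 to 0.0512). SEC6 rose by 0.66 (SE 0.20, adjusted p = 0.0377), but did not pass without wt replicate 2 or 3 or SND1 replicate 1, 2 or 3 (0.60 to 0.76, adjusted p 0.0283 to 0.145). SEC10 rose by 0.75 (SE 0.20, adjusted p = 0.0237), but did not pass without wt replicate 2 or 3 or SND1 replicate 1, 2 or 3 (0.70 to 0.85, adjusted p 0.0213 to 0.0952). These were differences under 2-fold with little spread between arrays. The other 2 were AtSec20 and KEU. AtSec20 (AT3G24315), a fusion protein of the Golgi route, rose by 1.32 (SE 0.32, adjusted p = 0.0129) but did not pass without SND1 replicate 2 or 3 (1.01 to 1.55, adjusted p 0.0126 to 0.063). KEU (AT1G12360), a regulator of membrane fusion in cytokinesis, rose by 0.98 (SE 0.27, adjusted p = 0.0239) but did not pass without wt replicate 2 or 3 or SND1 replicate 1, 2 or 3 (0.79 to 1.19, adjusted p 0.0112 to 0.127). None of the 12 passed at 0 h or in the 12 h difference minus the 0 h difference, whose median over them was 0.46, and for KEU the 0 h difference was 0.61 and the 12 h minus 0 h value 0.37. With the replicate block 8 of the 12 were higher at 12 h, and with replicates 2 and 3 averaged none were.

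Larger rises on this route were found for some genes of Rab trafficking. PRA1.B4 (AT2G38360), a membrane protein of the family that binds Rab GTPases, gave 1318, 982 and 917 in wt cells and 8697, 8534 and 9921 in SND1 cells. The SND1 arrays were close to each other and far above the brightest wt array, and PRA1.B4 rose by 3.09 (SE 0.30, adjusted p = 4.76e-06). PRA1.B6 (AT5G07110) gave 431, 706 and 512 in wt cells and 2285, 2016 and 2346 in SND1 cells and rose by 2.03 (SE 0.40, adjusted p = 0.0029). These were 2 of 8 tested PRA1 genes (25%, beside 8.91% of all probe sets called higher), with a median of 0.50. RAB6A (AT2G44610), a Rab of the Golgi, gave 1743, 1556 and 1690.1 in wt cells and 3405, 4718 and 4674 in SND1 cells and rose by 1.34 (SE 0.22, adjusted p = 0.000786). It was 1 of 2 tested genes of the Rab family. The other, ARA6, did not pass (-0.35, SE 0.15, adjusted p = 0.152), and all its SND1 arrays were below all its wt arrays. SNF7.1 (AT4G29160), a subunit of the ESCRT machinery that sorts membrane proteins to the vacuole, rose by 1.46 (SE 0.27, adjusted p = 0.00184). It was the 1 of 13 genes with a VPS symbol or synonym that passed (7.69%, under the 8.91% of all probe sets). With the replicate block 3 of them passed, and with replicates 2 and 3 averaged none did. Tetraspanins are small membrane proteins, of which 4 of 9 tested rose (44.4%, beside 8.91% of all probe sets) and none fell. TET13 (AT2G03840) gave 36.8, 5.67 and 16.4 in wt cells and 270.0, 477 and 415 in SND1 cells and rose by 4.22 (SE 0.58, adjusted p = 0.000158). TET7 (AT4G28050) rose by 2.18 (SE 0.39, adjusted p = 0.00129). TET3 rose by 1.35 (SE 0.36, adjusted p = 0.022) but did not pass without wt replicate 2 or 3 or SND1 replicate 2 or 3 (1.22 to 1.5, adjusted p 0.022 to 0.0916). TET9 rose by 2.14 (SE 0.61, adjusted p = 0.0295) but did not pass without wt replicate 1 or 3 or SND1 replicate 1 or 3 (1.71 to 2.61, adjusted p 0.0228 to 0.142).

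ATP citrate lyase makes cytosolic acetyl-CoA, the source of acetyl groups for many products outside plastids. Of its 4 tested subunit genes 3 rose (75%, beside 8.91% of all probe sets), with a median of 2.08. ACLA-2 (AT1G60810) gave 386, 481 and 512 in wt cells and 3205, 4567 and 4367 in SND1 cells. The groups were far apart relative to their spread, and ACLA-2 rose by 3.12 (SE 0.22, adjusted p = 1.78e-07). ACLA-1 (AT1G10670) gave 1447, 824 and 1001 in wt cells and 3986, 7156 and 7752 in SND1 cells and rose by 2.51 (SE 0.36, adjusted p = 0.000251). ACLB-1 (AT3G06650) gave 625, 416 and 460.2 in wt cells and 1418, 1731 and 1523 in SND1 cells and rose by 1.65 (SE 0.32, adjusted p = 0.00238). Among enzymes that act on wall glucans, GH9B5 and GH9B7 belong to family 9 of the endoglucanases. Of the 5 tested family 9 genes these 2 rose (40%, beside 8.91% of all probe sets) and none fell, with a median of -0.097. The other 3 did not pass and all lay below 0, from -0.88 to -0.097. GH9B7 (AT1G75680) gave 2644, 1234 and 1044 in wt cells and 6554, 6576 and 7053 in SND1 cells and rose by 2.16 (SE 0.32, adjusted p = 0.000303), having been higher at 0 h too (1.27, SE 0.32, adjusted p = 0.0494). GH9B5 (AT1G19940) gave 59.7, 1.86 and 13.3 in wt cells and 210.5, 191 and 196 in SND1 cells and rose by 3.41 (SE 0.74, adjusted p = 0.00592), with wt arrays that spread over a wide range. CSLC04 (AT3G28180), which makes the glucan backbone of xyloglucan, gave 1456, 132 and 125 in wt cells and 2552, 1324 and 1313 in SND1 cells. Wt replicate 1 was far above the other wt arrays and overlapped the SND1 arrays, and the rise of 2.48 (SE 0.77, adjusted p = 0.0456) did not pass without wt replicate 2 or 3 or SND1 replicate 1, 2 or 3 (1.89 to 3.63, adjusted p 0.000926 to 0.206). CSLC6 rose by 1.16 (SE 0.30, adjusted p = 0.0176) but did not pass without wt replicate 2 or 3 or SND1 replicate 1 or 3 (0.91 to 1.47, adjusted p 0.00326 to 0.104). CSLC04 and CSLC6 made 2 of 4 tested CSLC genes (50%, beside 8.91% of all probe sets called higher).

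Other hydrolases and transferases that rose were BGLU41 at 3.60 (SE 0.54, adjusted p = 0.000343), scpl20 at 2.90 (SE 0.50, adjusted p = 0.000973) and scpl25 at 1.91 (SE 0.33, adjusted p = 0.00113). With BGLU46 and BGLU25, BGLU41 made 3 of 7 tested BGLU genes (42.9%, beside 8.91% of all probe sets called higher). BGLU25 (0.73, SE 0.21, adjusted p = 0.0345) did not pass without wt replicate 2 or 3 or SND1 replicate 1, 2 or 3 (0.64 to 0.84, adjusted p 0.0253 to 0.14). With SCPL48, scpl20 and scpl25 made 3 of 13 tested carboxypeptidase-like genes (23.1%, beside the same 8.91%). Of 27 tested UGT glycosyltransferase genes 3 rose (11.1%) and 2 fell (7.41%), near the 8.91% and 3.86% of all probe sets. UGT71C5 (AT1G07240) and UGT71C4 (AT1G07250) are neighbours in the gene order and moved in opposite directions. UGT71C5 gave 499, 569 and 556 in wt cells and 338, 214 and 199 in SND1 cells and fell by 1.14 (SE 0.22, adjusted p = 0.00296). UGT71C4 gave 239.6, 139.6 and 182 in wt cells and 629, 634 and 515 in SND1 cells and rose by 1.67 (SE 0.27, adjusted p = 0.000544). UGT74F1 (AT2G43840), which glucosylates salicylic acid, rose by 3.29 (SE 0.52, adjusted p = 0.000495), and UGT85A4 by 1.79 (SE 0.39, adjusted p = 0.00603).

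The 12 largest falls, by the same rule, were smaller than the largest rises, at 2.33 to 3.92. Their wt signals ran from 32.1 to 918 and their SND1 signals from 2.71 to 72.8. All have locus codes as their only names. AT3G32180 was lowest with 138, 918 and 918 in wt cells and 5.66, 53.4 and 56.2 in SND1 cells. It fell by 3.92 (SE 1.13, adjusted p = 0.0315), and wt replicate 1 was well under the other wt arrays. It did not pass without wt replicate 2 or 3 or SND1 replicate 1, 2 or 3 (-4.82 to -3.06, adjusted p 0.0139 to 0.131). AT4G08110 gave 32.1, 123.3 and 93.8 in wt cells and 6.21, 3.20 and 4.77 in SND1 cells and fell by 3.10 (SE 0.57, adjusted p = 0.00184). AT4G01410 gave 58.6, 55.9 and 61.7 in wt cells and 6.07, 7.73 and 3.90 in SND1 cells and fell by 2.64 (SE 0.52, adjusted p = 0.0029). AT1G32590 gave 43.1, 172 and 196 in wt cells and 11.3, 19.3 and 29.8 in SND1 cells and fell by 2.35 (SE 0.47, adjusted p = 0.00347). These last 3 of the 12 passed in each of the 6 fits that left out 1 array. Replicates 2 and 3 were much alike, so leaving out 1 of them keeps the other. With replicates 2 and 3 averaged none of the 12 passed in limma. The adjusted p was then 0.124 for AT4G08110, 0.0826 for AT4G01410 and 0.184 for AT1G32590. The falls were not alone in this, since 36 of all 94 named genes called at 12 h passed in that fit. C3H14, PASPA3, HCT, LBD16, KIN13A and RAB6A were among those that did not (adjusted p 0.185, 0.12, 0.283, 0.139, 0.0993 and 0.113). AT1G46696 fell by 3.16 (SE 0.75, adjusted p = 0.011) but did not pass without wt replicate 2 or 3 or SND1 replicate 1 (-3.98 to -2.36, adjusted p 0.00209 to 0.0685). AT5G35380 fell by 2.85 (SE 0.68, adjusted p = 0.0116) but did not pass without SND1 replicate 3 (-3.52 to -2.29, adjusted p 0.00407 to 0.0681).

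The other 6 of these falls also lost their call when some arrays were left out. AT3G17050 (-2.79) did not pass without wt replicate 2 or 3 or SND1 replicate 1 or 2 (-3.02 to -2.60, adjusted p 0.0364 to 0.0615). AT4G11290 (-2.72) did not pass without wt replicate 2 or 3 or SND1 replicate 2 or 3 (-3.30 to -2.02, adjusted p 0.0246 to 0.16). AT1G47660 (-2.53) did not pass without wt replicate 1, 2 or 3 or SND1 replicate 2 or 3 (-3.06 to -1.92, adjusted p 0.0331 to 0.184). AT3G29410 (-2.49) passed in none of the 6 leave-outs, at adjusted p-values up to 0.148. AT2G24920 (-2.42) did not pass without wt replicate 2 or 3 or SND1 replicate 1, 2 or 3 (-2.96 to -2.13, adjusted p 0.0159 to 0.139). AT3G57770 (-2.33) did not pass without wt replicate 2 or 3 or SND1 replicate 3 (-3.0 to -1.84, adjusted p 0.00264 to 0.0721). At 0 h all 12 were below 0 as well, from -2.66 for AT3G32180 to -0.068 for AT3G29410, and none passed (adjusted p of at least 0.0808). AT1G46696, AT1G47660 and AT4G01410 were at -2.57, -1.86 and -1.84 before estrogen. The 12 h difference minus the 0 h difference passed for none of the 12 and ran from -2.42 to -0.60. Between 0 h and 12 h the mean signal of AT4G11290 went from 17.9 to 128.6 in wt and 10.5 to 20.5 in SND1 cells. That of AT1G46696 went from 68.7 to 433.2 and from 8.77 to 44.7, so both means were higher at 12 h in either line. The mean of AT4G01410 went down in both, from 449 to 58.7 and from 139.3 to 5.90. These changes over time were not tested.

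Cell division genes went both ways. Of 6 tested, 2 rose (33.3%) and 1 fell (16.7%), with a median of -0.074. Over all probe sets the shares were 8.91% and 3.86%. AUR1 (AT4G32830) and AUR2 (AT2G25880) are Aurora kinases of mitosis. AUR1 gave 127, 39.1 and 43.7 in wt cells and 461, 136 and 204 in SND1 cells and rose by 1.88 (SE 0.51, adjusted p = 0.0239), but did not pass without wt replicate 2 or 3 or SND1 replicate 1 or 3 (1.39 to 2.38, adjusted p 0.00573 to 0.117). AUR2 gave 36.9, 35.8 and 14.6 in wt cells and 121, 67.6 and 94.1 in SND1 cells and rose by 1.61 (SE 0.45, adjusted p = 0.0279), but did not pass without wt replicate 3 or SND1 replicate 1 or 3 (1.24 to 1.82, adjusted p 0.0259 to 0.142). AUR2 was already higher in SND1 cells at 0 h, by 2.03 (SE 0.45, adjusted p = 0.029), and its 12 h difference minus its 0 h difference did not pass (-0.42, SE 0.64, adjusted p = 0.757). POLA3 (AT5G41880), a subunit of the primase that starts DNA strands, gave 1656, 1545 and 1729 in wt cells and 892, 1131 and 1038 in SND1 cells. Its groups did not overlap and it fell by 0.69 (SE 0.15, adjusted p = 0.00651). At 0 h POLA3 was instead higher in SND1 cells, with 274, 295 and 331 in wt cells and 887, 964 and 940.5 in SND1 cells (1.62, SE 0.15, adjusted p = 9.12e-05). MCM7 (AT4G02060), of the replicative helicase, gave 1261, 877 and 939.6 in wt cells and 572, 514 and 543 in SND1 cells at 12 h (-0.90, SE 0.30, adjusted p = 0.0603), which did not pass as reported, and was higher at 0 h (1.79, SE 0.30, adjusted p = 0.00504). With the replicate block MCM7 passed at 12 h (adjusted p = 0.0129), which makes 2 of the 6 lower. With replicates 2 and 3 averaged none of the 6 passed. The 6 tested histone genes ran from 0.099 to 0.25 and none passed in limma, with 0 at an unadjusted p under 0.05.

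Genes of sugar starvation and detoxification split by member. AMY1 (AT4G25000), an alpha-amylase that breaks down starch, gave 34.2, 31.4 and 12.3 in wt cells and 52.0, 101 and 104 in SND1 cells. It rose by 1.60 (SE 0.46, adjusted p = 0.0317), but did not pass without wt replicate 2 or 3 or SND1 replicate 2 or 3 (1.21 to 1.91, adjusted p 0.0251 to 0.159). At 0 h AMY1 was far lower in SND1 cells, with 1082, 1195 and 979 in wt cells and 266, 121 and 82.6 in SND1 cells (-2.92, SE 0.46, adjusted p = 0.0035). SFP1 (AT5G27350), a sugar transporter known to rise in ageing leaves, gave 139.7, 181 and 170.5 in wt cells and 80.1, 44.8 and 68.4 in SND1 cells and fell by 1.32 (SE 0.27, adjusted p = 0.00357). It was lower at 0 h too, by 1.91 (SE 0.27, adjusted p = 0.00183). Of 7 tested glutathione transferases, which detoxify reactive compounds, 2 neighbouring genes rose (28.6%, beside 8.91% of all probe sets) and none fell. GSTU25 (AT1G17180) gave 347, 31.9 and 45.0 in wt cells and 2882, 4095 and 3879 in SND1 cells. Wt replicate 1 was several times the other wt arrays and still under every SND1 array, and GSTU25 rose by 5.39 (SE 0.63, adjusted p = 2.82e-05). GSTU26 (AT1G17190) gave 86.3, 23.5 and 20.4 in wt cells and 322, 353 and 367 in SND1 cells and rose by 3.15 (SE 0.80, adjusted p = 0.0169), but did not pass without wt replicate 2 or 3 or SND1 replicate 2 or 3 (2.81 to 3.74, adjusted p 0.00915 to 0.0812). Of the expansins, which loosen growing walls, 1 of 9 fell (11.1%, beside 3.86% of all probe sets) and none rose. EXPA20 (AT4G38210) gave 376, 599.8 and 420.0 in wt cells and 187, 186 and 176 in SND1 cells and fell by 1.30 (SE 0.35, adjusted p = 0.0231), but did not pass without wt replicate 2 or 3 or SND1 replicate 1, 2 or 3 (-1.43 to -1.1, adjusted p 0.0244 to 0.116). EXPA9 gave 935, 1822 and 1796 in wt cells and 2387, 3964 and 3805 in SND1 cells and did not pass (1.18, SE 0.46, adjusted p = 0.101).

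In 7 other lists, formed by gene symbol, no gene passed in limma, beside 12.8% of all probe sets called in either direction. Genes that carry a locus code alone could not enter these lists, AT3G47400, AT1G52060 and AT1G52050 among them, so a count of 0 does not cover a whole gene family. The tested genes numbered 4 for pectin, 11 for autophagy, 2 for heat shock, 4 for alternative respiration, 3 for jacalin lectins, 28 for photosynthesis and 1 for procambium. At an unadjusted p under 0.05 there were 1, 2, 1, 1, 1, 0 and 0, in that order. Their medians lay between -0.49 for jacalin lectins and 0.54 for alternative respiration. The nearest to passing were ATG8B, an autophagosome protein, at -1.16 (SE 0.37, adjusted p = 0.0537), NDB1, a mitochondrial NAD(P)H dehydrogenase, at 0.87 (SE 0.31, adjusted p = 0.0721), and JAL22 at -0.91 (SE 0.35, adjusted p = 0.0984). ATPMEPCRB, a pectin methylesterase, gave 73.0, 85.6 and 70.7 in wt cells and 127, 240.1 and 197 in SND1 cells (1.21, SE 0.53, adjusted p = 0.146). The 3 SND1 arrays of that gene lay above the wt arrays. Of the photosynthesis genes, LPA19 gave 265, 263 and 264 in wt cells and 107, 145 and 124 in SND1 cells (-1.06, SE 0.55, adjusted p = 0.223), and PSAN reached 23.5 at most.

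**Figure D4:**
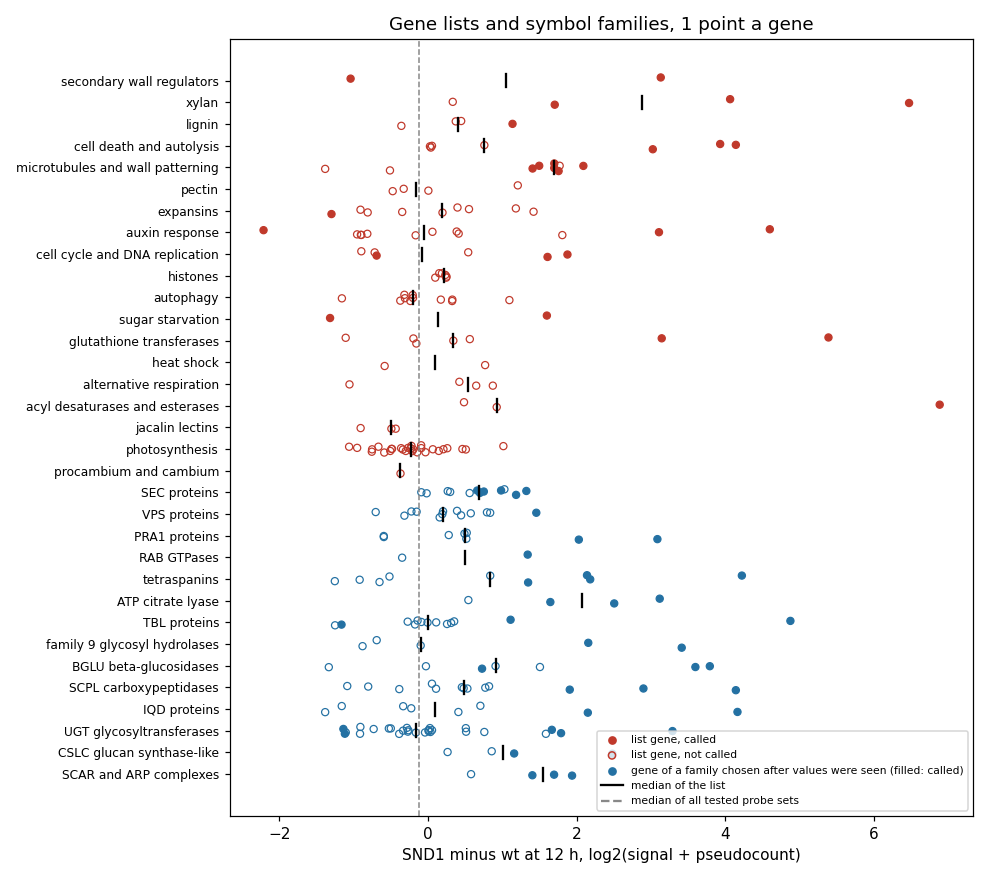
Each point is a tested gene, placed by its difference SND1 minus wt at 12 h in log2(signal + 4.32), one row for each list (red) or symbol family chosen after values were seen (blue), and filled where the adjusted p was under 0.05. Black bars mark medians, at 2.89 for xylan, 1.70 for microtubules and -0.23 for photosynthesis, against the dashed line at -0.12 for all probe sets.

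The lines already differed before estrogen. At 0 h 368 probe sets passed (2.34%), 295 higher in SND1 cells (1.88%) and 73 lower (0.465%), and 583 with a replicate block in the fit. The count of 368 became 846, 206 and 153 without wt replicate 1, 2 or 3 at 0 h, 221, 102 and 103 without SND1 replicate 1, 2 or 3, and 1 when only the 6 arrays compared were fitted. The 0 h and the 12 h comparison share no array. Of the probe sets called at 12 h, 88 were also called at 0 h, which is 4.39% of the 12 h calls and 23.9% of the 0 h calls. Of these 88, 47 were higher at both times and 17 lower at both, while 12 went from higher to lower and 12 from lower to higher. The 12 h difference minus the 0 h difference passed for 923 probe sets (5.87%), 546 with a more positive difference at 12 h (3.47%) and 377 with a more negative one (2.4%). That count fell to 526 and 498 without wt replicate 2 or 3 at 12 h, 463 and 474 without SND1 replicate 2 or 3 at 12 h, and 487 and 515 without SND1 replicate 2 or 3 at 0 h. POLA3 had the value -2.31 (SE 0.21, adjusted p = 1e-05) in it, MCM7 -2.69 (SE 0.42, adjusted p = 0.00121), AMY1 4.52 (SE 0.65, adjusted p = 0.000607) and LBD16 -2.54 (SE 0.61, adjusted p = 0.0233). Of the families above with members higher at 12 h, it was higher for none of the SEC, VPS, family 9 hydrolase and CSLC genes, for 1 each of the tetraspanin, Rab, TBL and IQD genes, for 2 each of the PRA1, ATP citrate lyase, BGLU, UGT and SCAR group genes and for 3 of the carboxypeptidase-like genes. Of the lignin and wall regulator lists none passed in it. For TUB1, TUB7 and TUB9, higher at 12 h, it did not pass (0.60, 1.31 and 0.79, adjusted p = 0.386, 0.0644 and 0.159), nor for IQD31 (0.98, SE 0.33, adjusted p = 0.0959) or GH9B7 (0.89, SE 0.45, adjusted p = 0.261).

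**Figure D5:**
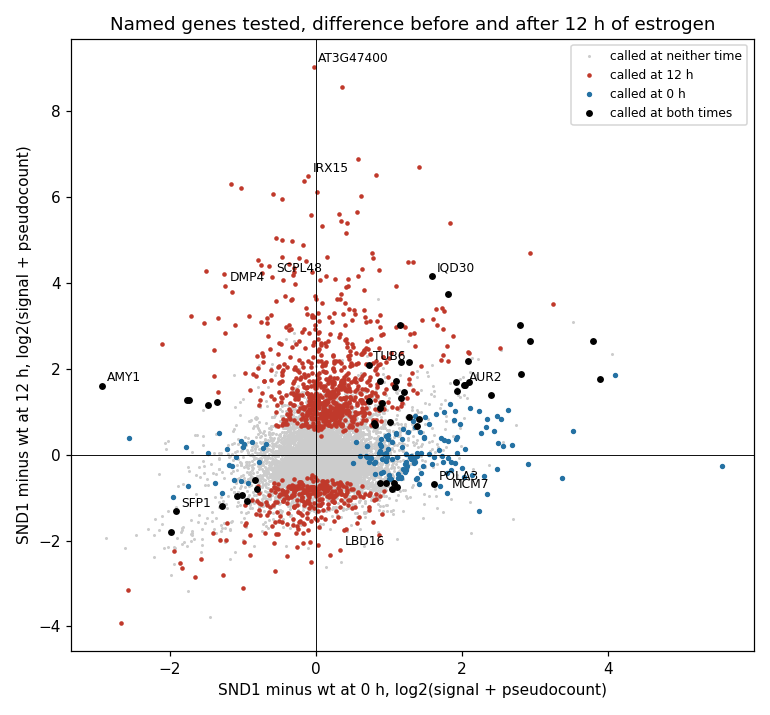
Each point is a named gene tested, with its difference SND1 minus wt at 0 h on the x axis and at 12 h on the y axis, both in log2(signal + 4.32), coloured by the time at which its adjusted p was under 0.05. The largest rises, led by AT3G47400 at 9.02, were not called at 0 h, while AMY1 and POLA3 changed side between the times.

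SND1 cells were also set against the 3 arrays of VND6 cells at 12 h, to show where the 2 induced lines differ. Of the 15715 probe sets 442 passed (2.81%), 279 higher in SND1 cells (1.78%) and 163 higher in VND6 cells (1.04%). The count was 254 and 260 without VND6 replicate 2 or 3 and 235 and 238 without SND1 replicate 2 or 3. The SND1 arrays are those of the comparison with wt cells. Of the 15 largest rises in SND1 cells, 5 were higher in SND1 than in VND6 cells, 1 was lower and 9 did not pass. Against the same wt arrays, which both differences share, VND6 cells differed by 10.04 for AT3G47400, 7.79 for CXE20 and 3.12 for IRX15, beside 9.02, 6.88 and 6.47 in SND1 cells. The VND6 minus wt values of AT1G52060, AT5G16230 and AT1G52050 were 0.86, 1.11 and 1.19, and those of the other 12 genes ran from 3.04 to 10.04. AT1G52060 gave 48.5, 30.3 and 21.9 in VND6 cells, and was higher in SND1 cells by 5.84 (SE 0.57, adjusted p = 1.53e-05). AT1G52050 gave 36.5, 61.3 and 33.3 there (4.92, SE 0.70, adjusted p = 0.000641), so neither neighbour came near its SND1 signals on any VND6 array. AT5G16230 gave 5.16, 15.6 and 21.3 (5.18, SE 0.62, adjusted p = 0.000139). IRX15 gave 33.2, 73.9 and 63.1 in VND6 cells, between the wt and the SND1 arrays, and was higher in SND1 cells by 3.35 (SE 0.42, adjusted p = 0.000201). BGLU46 gave 80.4, 188 and 124 in VND6 cells, close to its wt signals, and was higher in SND1 cells by 3.85 (SE 0.41, adjusted p = 4.21e-05). TET13 and HCT were higher in SND1 cells by 2.91 (SE 0.58, adjusted p = 0.0095) and 1.63 (SE 0.29, adjusted p = 0.00432).

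PRX72, AT5G26330 and AT1G62170 passed the other way. PRX72 gave 1617, 1613 and 1658 in VND6 cells against at most 3.20 in SND1 cells, and passed (adjusted p = 6.7e-07). With SND1 signals at the floor its size depends on the pseudocount, at -7.93 as reported, -9.43 with none and -6.39 with one 4 times larger. PRX66 gave 279, 343 and 312 in VND6 cells (-2.16, SE 0.46, adjusted p = 0.0156). Of the lignin genes, HCT was the 1 higher and PRX72 and PRX66 were the 2 lower in SND1 than in VND6 cells. AT5G26330 gave 52.6, 20.4 and 25.2 in SND1 cells and 4646, 5953 and 7058 in VND6 cells (-7.39, SE 0.51, adjusted p = 3.49e-07). AT1G62170 gave 40.2, 58.7 and 57.0 in SND1 cells and 2239.8, 3897 and 4623 in VND6 cells (-5.95, SE 0.62, adjusted p = 2.94e-05). Neither AT5G26330 nor AT1G62170 passed between SND1 and wt cells (1.46 and 0.85, adjusted p = 0.0713 and 0.393). AT2G04850, among the 15 largest rises, was lower in SND1 than in VND6 cells by 3.24 (SE 0.40, adjusted p = 0.000169). ACLA-2 was lower by 1.02 (SE 0.22, adjusted p = 0.018) and GSTU22 by 3.59 (SE 0.50, adjusted p = 0.000484). For the cell death genes SCPL48, DMP4 and PASPA3 the difference between SND1 and VND6 cells did not pass (-0.63, 0.44 and 0.67, with standard errors of 0.46, 0.32 and 0.63). It did not pass for any of the 9 microtubule genes either, with a median of -0.067.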

How the data were processed

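Per the labels' protocols, total RNA (TRIzol, then RNeasy Micro) became biotinylated cRNA for ATH1 arrays. The deposited table holds, for every array, a linear intensity of each probe set. GCOS is the tool that the submitters' processing notes name for it, and no source used here gives its version or algorithm. No detection calls were used. The 2% trimmed mean was 500.045 to 500.058 throughout, so the values were treated as already scaled by the authors. Such scaling assumes that most transcripts do not move.

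Probe sets were tested if at or above the 40th percentile of their own array (59.8 to 64.5 in signal on the 6 arrays compared) on at least 3 of 18 arrays, after 64 control probe sets were left out. Signals were transformed as log2(signal + 4.32), the 10th percentile of the table. Means of all 6 groups were fitted to 18 arrays with limma 3.58.1 in R 4.3.3 (lmFit, eBayes with an intensity trend), and 2-sided p-values were adjusted by Benjamini-Hochberg over 15715 probe sets within each contrast. For 1 value, an exact permutation of 3 against 3 arrays could not go below 0.1. The fit was tested on simulated data.

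Genes came from the platform annotation, updated through RefSeq (TAIR10.1, for names and gene order only): of 22810 probe sets 13513 had 1 gene, 503 several and 8730 none, and 13436 of the 13513 matched. Where several probe sets name 1 gene, the brightest stands for it. The labels PASPA3, DMP4, PRX66, PRX72, PRX71 and C3H14 were given to loci that carry a code alone in those tables. The 23 lists and the comparison were chosen with earlier results of these data known. The rule for naming genes took the 15 largest rises and 12 largest falls that passed and whose arrays did not overlap, all tested genes of the wall, cell death and microtubule lists, up to 4 of each other list, the 6 largest differences each way between SND1 and VND6 cells at 12 h, and genes of symbol families that passed. A planned search of promoters was not run, and ribosomal protein lists were not formed.

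Pairing by replicate number was checked with the correlation, over probe sets, of deviations from group means. Same-numbered SND1 and wt arrays correlated at 0.451, 0.228 and 0.292 at 12 h and at 0.486, 0.304 and 0.399 at 0 h. SND1 replicate 2 with wt replicate 3 gave 0.293 at 12 h, so the numbers mainly set replicate 1 apart. They do not show that replicates 2 and 3 are paired. The p-values reported come from the fit without a replicate term, and the replicate block was run as an alternative only. With it the 12 h count of 2006 became 2615 and the 0 h count of 368 became 583. The alternatives were quantile normalization, no filter or one at the 60th percentile, no pseudocount or one 4 times larger, no trend, array weights, fitting only the arrays compared, the replicate block, leaving out each array, and replicates 2 and 3 alone or averaged.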

Additional observations from a re-analysis of the deposited data

Results flagged for a closer look

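The SND1 and VND6 lines differed from each other at 12 h for 442 probe sets by a test of the difference itself, and the 12 h difference between SND1 and wt cells differed from the 0 h one for 923. Among named genes the largest differences toward SND1 cells were AT1G52060 at 5.84, AT5G16230 at 5.18, AT1G52050 at 4.92, AT2G43870 at 4.67, AT3G03770 at 4.32 and AT3G19430 at 4.17, in log2(signal + 4.32). AT2G43870 gave 14.9, 5.57 and 47.0 in wt, 162, 526 and 514 in SND1 and 6.73, 19.4 and 6.25 in VND6 cells. AT3G03770 gave 3.21, 3.53 and 0.897 in wt, 101, 167 and 166 in SND1 and 5.55, 2.96 and 0.993 in VND6 cells. For both genes the VND6 arrays overlapped the wt arrays, and of these groups SND1 cells alone stood high. Both were chosen by this difference and were too dim in wt cells for testing. They were tested only because other arrays, the SND1 arrays among them, were bright, so this pattern was nearly fixed by the choice. AT3G19430 gave 168, 401 and 405 in SND1 and 35.2, 16.8 and 1.56 in VND6 cells.

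Toward VND6 cells the largest were PRX72 at -7.93, AT5G26330 at -7.39, AT3G52900 at -7.26, AT3G63050 at -6.26, AT1G13310 at -6.14 and AT1G62170 at -5.95. With SND1 signals this low these sizes depend on the pseudocount, and the 6 ran from -9.43 to -6.06 with none and from -6.92 to -4.97 with one 4 times larger. AT3G52900 gave 38.4, 17.98 and 9.85 in SND1 and 2781, 3826 and 4589 in VND6 cells. AT3G63050 gave 1.16, 9.84 and 12.9 and 432, 1063 and 1296, and AT1G13310 3.43, 10.9 and 4.39 and 279.9, 1109 and 1145. None of these 6 genes passed between SND1 and wt cells at 12 h in limma, and AT5G26330 was nearest at 1.46 (SE 0.51, adjusted p = 0.0713).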

How the results depend on the processing

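The count of 2006 probe sets at 12 h was 2333 after quantile normalization, 1700 with no filter and 2615 with the replicate block, and moved more with array weights (8285), with only the arrays compared (3457), with replicates 2 and 3 only (7328) and after averaging these 2 (283). It ran from 1078 to 2385 when each array was left out. The 0 h count of 368 became 583 with the replicate block, 4310 with array weights, 1 with only the arrays compared (1997 at an unadjusted p under 0.05), 4510 with replicates 2 and 3 only, and 0 after averaging these (931 at an unadjusted p under 0.05 in limma), and ran from 102 to 846 without 1 array. The 12 h minus 0 h count of 923 became 5927, 5469 and 62 with array weights, replicates 2 and 3 only and replicates 2 and 3 averaged, and ran from 463 to 1041. The SND1 against VND6 count of 442 became 5554, 4634 and 58 under the same settings, and ran from 235 to 651. The cause of these shifts was not tested. The fit with replicates 2 and 3 only and the fit that averages them hold the same number of values per group. The replicate block kept the calls of the 94 named genes called at 12 h, added IAA30 and MCM7, and moved no count over all probe sets but the one at 0 h by over 1.5 times. Among the families it raised the genes called higher from 6 to 8 for SEC, from 1 to 3 for VPS and from 3 to 4 for ATP citrate lyase. It raised the tetraspanin, family 9 hydrolase and BGLU genes called lower from 0 to 1 each and the UGT genes called lower from 2 to 3. With replicates 2 and 3 averaged, the genes called higher were 0 for SEC, 0 for VPS and 1 for ATP citrate lyase. All 94 also passed in the same direction after quantile normalization, with array weights and with replicates 2 and 3 only, and 66 did without any 1 of the 6 arrays. With replicates 2 and 3 averaged 36 passed. No named gene that passed changed direction under the alternatives run.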
